A study of Mus musculus with 12 samples.

Results

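Histone H4 acetylated at lysine 12 (H4K12ac) was examined over 46 genes that encode enzymes and core subunits of histone and DNA methylation, out of 55450 genes of the mouse annotation (GENCODE M21, GRCm38). The genes were taken from a named list covering the enzymes that write methyl groups on histone lysines and arginines, those that remove them, and those that methylate cytosine or oxidise methylcytosine. For each gene, ChIP-Seq peaks were read within 2 kb of the annotated start and along the gene body, in 5 Tip60 cKO and 5 control mice. In the Tip60 cKO mice both Tip60 alleles were floxed and the CaMKCreERT2 driver was present. The control mice were Tip60 f/f littermates without the driver, and mice of both genotypes received tamoxifen. The labels give an age of 3 months, male sex and strain C57BL/6J, whereas the study's methods name C57BL/6N and either sex. Chromatin came from fixed neuronal nuclei of the whole hippocampus sorted by flow cytometry. The driver acts in excitatory forebrain neurons, so inhibitory neurons among the sorted nuclei keep Tip60. The study set out to learn which acetylation is lost in neurons without Tip60, an acetyltransferase that acts on histone H4.

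Methylation of histone lysines is written by SET domain proteins and Dot1l, and is erased by the flavin-dependent LSD enzymes and the JmjC dioxygenases. Methylation of H3K4, H3K36 and H3K79 marks active genes, whereas methylation of H3K9 and of H3K27, the product of Polycomb repressive complex 2, marks silent chromatin. DNA methyltransferases act on cytosine and TET dioxygenases begin its demethylation. In postmitotic neurons Dnmt3a also methylates cytosines outside CpG, and mutations of several of these genes cause intellectual disability in people.

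Each of the 10 libraries had its own peak list. The deposited headers record 22864189 to 37923809 tags per H4K12ac library after filtering. The Tip60 cKO lists held 64245 to 135494 peaks and the control lists 93575 to 136409, with a covered length of 43.8 ± 14 Mb and 56.4 ± 10.7 Mb (SD, n = 5 each). Tip60 cKO mouse 5 had the shortest list, with 22.6 Mb covered. One pooled input library per genotype served as background for all mice of that genotype, so a difference between the inputs and a difference between the genotypes cannot be told apart. Of the markers checked, all 6 pan-neuronal genes had a start peak in all 10 lists, and 5 of 6 oligodendrocyte and 5 of 6 microglial markers had none in any list. In control mice the summed rank score (defined next) of the 6 astrocyte markers ranged from 78.5 to 224, and in Tip60 cKO mice from 68.3 to 202. For the 6 vascular markers it was 0 to 132 in control and 139 to 157 in Tip60 cKO mice, so all Tip60 cKO mice lay above all controls, although Pecam1 and Tek had no peak in any list and no vascular marker passed the adjusted threshold. Its part in the results that follow was not tested. The pan-neuronal sum was 510 to 535 in control and 486 to 512 in Tip60 cKO mice, and the excitatory sum 415 to 502 and 406 to 496. The sums also overlapped between the genotypes for the inhibitory (0 to 75.4 and 0 to 73.2), oligodendrocyte (0 to 69.5 and 0 to 79.1) and microglial markers (0 to 78.2 and 0 to 72.6). The files hold peaks and no expression values, so recombination of Tip60 is not checked here.

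A pair of start measures and a gene body measure were used. The TSS rank score is the percent rank of a gene's strongest peak (by fold enrichment over input) among those overlapping the 2 kb on either side of its annotated start, taken among all 55450 gene starts of the same library. It is 0 where there is no peak and was at least 65.2 where there was one. The summit of such a peak may lie outside the window, as it did in 3 to 9 lists for Setd1b, Kdm6b, Kdm2b and Tet3. TSS coverage gives how much of the 4 kb around the start, in percent, lies under peaks, and gene body coverage is the percent of the remaining gene under peaks. A fold change in enrichment shared by all peaks of a library leaves the ranks as they are. The score still falls to 0 where a weak peak is not called, and both coverages rise with the number of peaks called.

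Start acetylation was present at nearly all of these genes and was high. A TSS peak stood in all 10 lists for 39 of the 46 genes, in 1 to 9 lists for 4 (Prmt5, Suv39h2, Setdb2 and Tet3), and in none for 3 (Dnmt1, Kdm4c and Tet1). Among the 43 genes with a peak in at least 2 lists, 90.7% had it in all 10, beside 70.5% of the 13689 protein-coding genes that passed the same filter. The control rank score exceeded 90 in 28 of the genes and was under 80 in 8, counting the 3 without a start peak. The median over the 43 was 93.6 in control and 91.1 in Tip60 cKO mice, beside 84.1 and 83.8 over the protein-coding genes. By mouse, the median of the 43 ran from 93.1 to 94.2 in the controls and from 89.4 to 94.8 in the Tip60 cKO mice. Thus 4 Tip60 cKO mice lay below all controls, and Tip60 cKO mouse 1 lay above them.

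**Figure D1:**
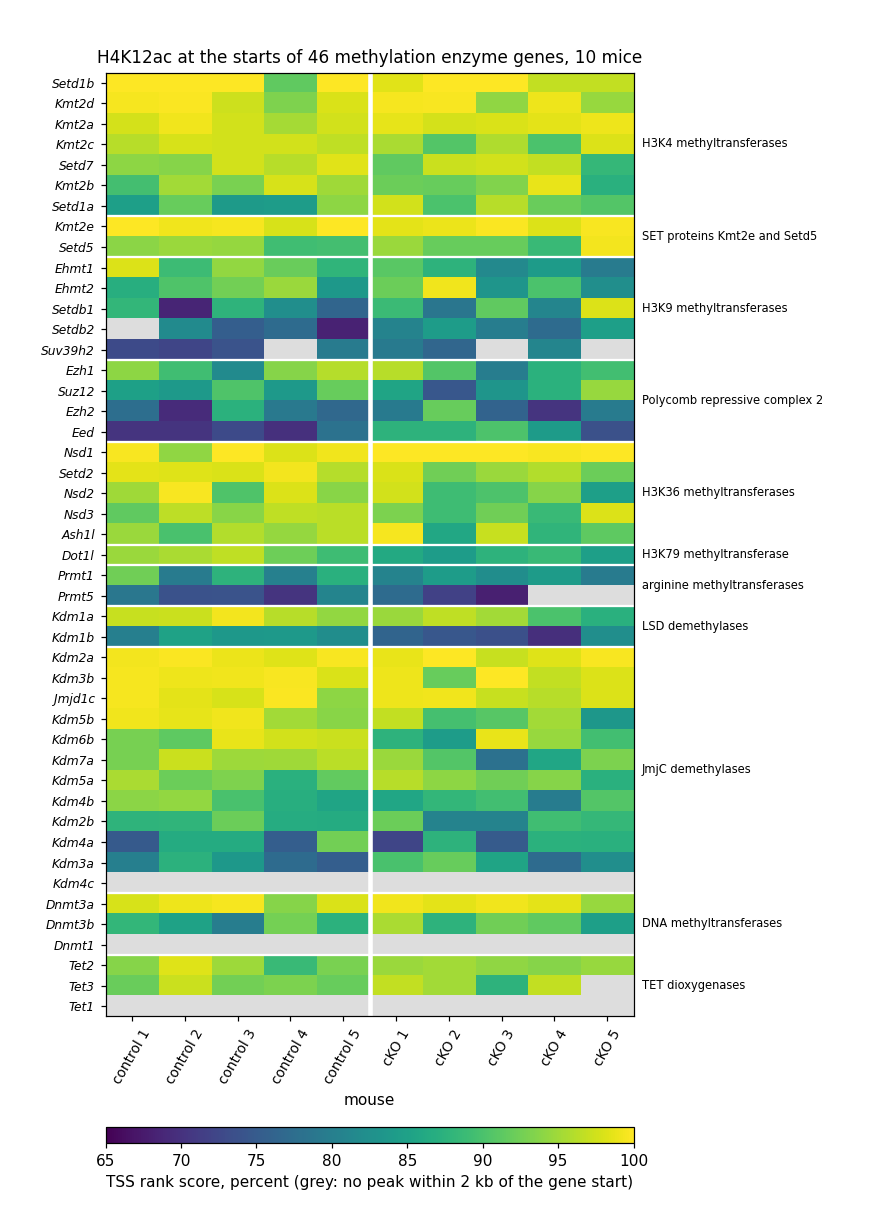
TSS rank score (percent, colour) of the 46 genes in rows, grouped by enzyme class, in 5 control and 5 Tip60 cKO mice in columns. Grey marks a list without a peak within 2 kb of the gene start. Most rows are bright in all mice, and Dnmt1, Kdm4c and Tet1 are grey throughout.

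No gene of the group passed the adjusted threshold for its TSS rank score, beside 51 of 21672 genes tested (0.235%, limma with Benjamini-Hochberg adjustment). Eed was called under 2 alternatives, on the log2 fold enrichment scale and without Tip60 cKO mouse 5. The score was lower in Tip60 cKO mice for 29 of the 43 and higher for 14, beside 55.6% lower over all genes tested, with a median difference of -1.70 beside -0.69 over all genes tested. The size of that median rested on single libraries: it was -0.50 without Tip60 cKO mouse 3 (all genes -0.855), -0.56 without Tip60 cKO mouse 5 (all genes -0.376) and -1.10 without control mouse 5 (all genes -1.15). At an unadjusted p below 0.05, 3 of the 43 were lower (background 6.68%) and 1 was higher (background 5.1%). The genotypes did not overlap for 1 gene, Dot1l, which was lower (background 1.62%), and no gene was higher without overlap (background 1.93%). These shares lie near the background, so the counts say nothing particular about these genes.

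Coverage of the start windows gave a different picture, shared with the rest of the genome. It was lower in Tip60 cKO mice for 39 of the 43 genes, with a median difference of -6.93 percentage points, beside 81.1% of all genes and a median of -4.01. Without Tip60 cKO mouse 5 the medians were -4.61 and -2.78. None of the 43 passed the adjusted threshold, against 1.5% of all genes tested (324 genes). At an unadjusted p below 0.05, 11 were lower (background 21.2%) and 0 were higher (250 of 21672 over all genes). Without overlap of the genotypes, 2 were lower (Kdm4b and Setd7, background 5.23%). Divided by each library's own mean coverage, 19 of the 43 were lower and the median difference was 0.04 times the library mean, while 50.0% of all genes were lower on that scale. The direction for these genes thus depends on the scale, and the Tip60 cKO lists covered less of the genome.

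**Figure D2:**
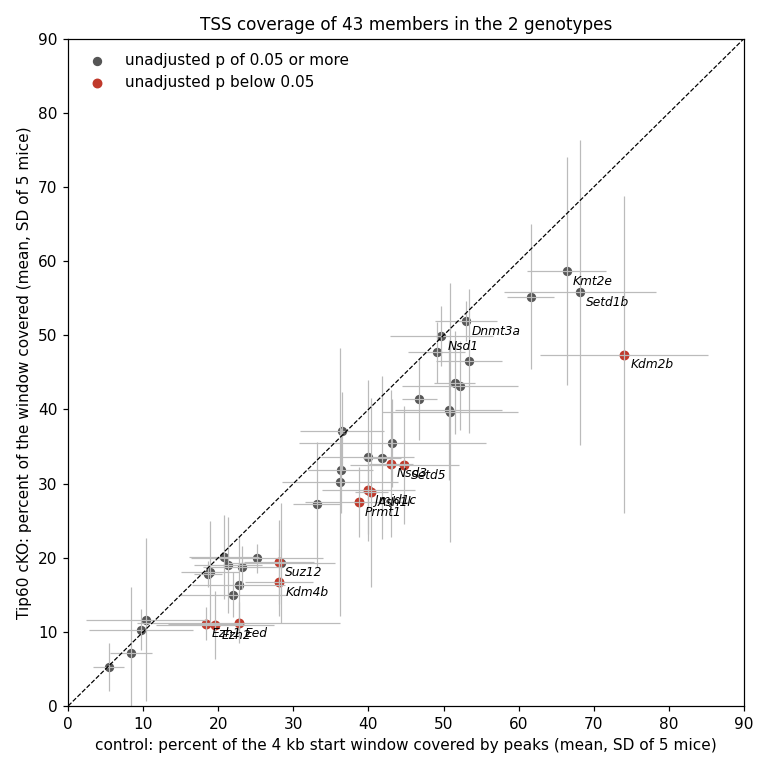
Percent of the 4 kb start window under peaks in control (x) and Tip60 cKO mice (y) for 43 genes, as mean and SD of 5 mice each, with the line of equality dashed. In 39 of the 43 the mean is lower in Tip60 cKO mice, and the 11 red points have an unadjusted p below 0.05.

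The H3K4 methyltransferases had strong start peaks. Kmt2a, Kmt2b, Kmt2c and Kmt2d are the MLL proteins, Setd1a and Setd1b serve the SET1 complexes that place trimethylation at promoters, and Setd7 places monomethylation. The median control score of these 7 genes was 97.2 and that in Tip60 cKO mice 94.3. Setd1b scored 98.3 ± 3.84 in the controls and 98.4 ± 1.59 with Tip60 deleted (SD, n = 5), and Kmt2a 97.5 ± 1.40 and 98.4 ± 0.54. The strongest Setd1b peak had its summit at -3300 to -3420 bp from the start in 4 controls and 2 Tip60 cKO mice, and near the start in the others, so different peaks are compared there. Among these 7 the score was lower in Tip60 cKO mice for 4 and higher for 3. Setd1a differed most, at 84.7, 91.8, 84.1, 84.4 and 94.1 in the controls and 97.6, 90.1, 96.2, 92.0 and 90.6 in the Tip60 cKO mice. The values overlapped, and the difference of 5.45 ± 2.79 (SE) did not pass (exact permutation p = 0.0714). The local background behind the strongest Setd1a peak was 1.14 to 1.15 times the genome-wide value in the controls and 1.06 to 1.08 times in the Tip60 cKO mice. With peaks ranked by pileup (signal height) the difference was 4.69 (limma adjusted p = 0.625). The part of the background in it was not tested further. Setd7 had a window coverage of 53.1%, 49.7%, 55.5%, 49.7% and 49.4% in the controls and 49.4%, 44.2%, 47.7%, 45.0% and 31.8% in the Tip60 cKO mice. The genotypes only just separated, with an exact permutation p of 0.00794, the smallest that 5 against 5 mice allow, but an adjusted p of 0.322 in the limma fit.

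Kmt2e and Setd5 carry a SET domain whose enzymatic activity is doubtful, and mutations of each cause neurodevelopmental disorders. Kmt2e had the highest control score of all 46 genes. It scored 100, 99.3, 99.5, 97.9 and 100 in the controls and 98.6, 99.0, 99.8, 98.1 and 99.7 in the Tip60 cKO mice, so the genotypes overlapped at the top of the scale (difference -0.28 ± 1.40 SE). Its strongest peak stood 11 ± 1.63 times over input in control and 9.02 ± 0.93 times in Tip60 cKO mice, which is 2.07 ± 0.32 and 1.82 ± 0.20 times the median start peak of the same library. The summit lay at -723 to -755 bp in all controls and Tip60 cKO mice 4 and 5, but at -257 to -270 bp in the other Tip60 cKO mice. The start window of Kmt2e also holds the start of another gene, as do the windows of 20 of the 46 genes in all. The next highest control scores were those of Kdm2a, 99.2 ± 0.61, and Kdm3b, 99.1 ± 0.65, both demethylases of H3. In the Tip60 cKO mice these 3 genes scored 97.2 to 99.0 on average.

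Setd5 had a start coverage of 56.3%, 47.5%, 40.2%, 38.6% and 41.4% in the controls and 42.4%, 36.1%, 34.2%, 27.7% and 21.8% in the Tip60 cKO mice. That difference of -12.3 ± 4.89 percentage points had an exact permutation p of 0.0317, yet the rank score of the same gene differed by 0.96 ± 2.42 in the opposite direction.

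Among the 5 H3K9 methyltransferases the median control score was 80.7, below the 84.1 of protein-coding genes. Ehmt1 (92.3) and Ehmt2 (89.6) lay above the latter. Setdb2 (60.5) and Suv39h2 (59.7) were lowest, with missing peaks counted as 0. Ehmt1 and Ehmt2 (GLP and G9a) form the complex that places dimethylation. Ehmt1 scored 98.1, 89.0, 94.3, 92.0 and 87.9 in the controls and 91.0, 87.6, 81.5, 84.2 and 79.6 in the Tip60 cKO mice. Its control scores were higher on average and the ranges overlapped (difference -7.50 ± 2.90 SE, exact permutation p = 0.0317, limma adjusted p = 0.348). Within lane 7, with 3 mice per genotype, the difference was -7.12, and within lane 8, with 2 per genotype, -8.06. Ehmt2 differed by -0.27 ± 3.69 between the genotypes.

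Setdb2 and Suv39h2, which act on heterochromatin, were near the limit of detection. Setdb2 had no start peak in control mouse 1 and scored 81.7, 75.4, 77.2 and 68.3 in the other controls, against 80.7, 84.3, 79.9, 77.3 and 84.8 in the Tip60 cKO mice. Its summit lay after the start in these 4 controls and before it in 4 Tip60 cKO mice. The window also holds the start of Cab39l, so different peaks may be compared there. Suv39h2 lacked a peak in control mouse 4 and in Tip60 cKO mice 3 and 5, and scored 72.3 to 80.9 in the lists that held it. A start without a peak says that none was called at this depth, not that the mark is absent. Setdb1, a writer of H3K9 trimethylation, had a peak in all lists and scored 80.7 ± 8.25 in control and 87.6 ± 7.95 in Tip60 cKO mice.

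Polycomb repressive complex 2 consists of the methyltransferases Ezh1 or Ezh2 with Eed, which reads H3K27 trimethylation, and Suz12. All 4 had narrower start coverage in Tip60 cKO mice at an unadjusted p below 0.05, as medians of 21.1% in control and 11.2% in Tip60 cKO mice. Of all genes tested 21.2% were lower at that p, and the adjusted p-values of the 4 were 0.184 or more. With equal numbers of peaks per library, Eed was higher by 3.32 percentage points (adjusted p = 0.651). The others stayed lower in that setting, Ezh1 by -6.03, Ezh2 by -8.61 and Suz12 by -12.8 (limma adjusted p = 0.271, 0.231 and 0.0755). Relative to the library mean, the adjusted p was 0.499 for Eed, 0.58 for Ezh2, 0.658 for Ezh1 and 0.893 for Suz12. Ezh1 was covered over 22.3%, 24.2%, 12.2%, 17.5% and 15.1% of the window in the controls and 14.5%, 8.52%, 10%, 11.3% and 11.2% in the Tip60 cKO mice. Suz12 was covered over 32.9%, 27.3%, 24.5%, 22.8% and 32.9% against 23.3%, 20.7%, 9.50%, 22.7% and 21%, where a single Tip60 cKO mouse reached into the control range. The rank scores of the same 4 genes were lower for 2 and higher for 2.

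Eed had the only higher score with an unadjusted p below 0.05. It scored 70.3, 70.2, 72.9, 69.8 and 78.2 in the controls and 87.6, 87.6, 90.2, 84.2 and 73.7 in the Tip60 cKO mice. Of the latter, 4 lay above all controls and mouse 5 lay within them (difference 12.4 ± 3.35 SE, exact permutation p = 0.0159, limma adjusted p = 0.17). The limma adjusted p was 0.036 on the log2 fold enrichment scale and 0.05 without Tip60 cKO mouse 5. With equal numbers of peaks per library the difference was 54.4 (limma adjusted p = 0.311). The direction depended on how peaks were ranked: ranked by pileup, the height of the stacked fragments, Eed was lower by 4.21 in Tip60 cKO mice. The local background behind the strongest peak was 1.99 to 2.20 times the genome-wide value in control mice 2, 3 and 4, and 1 times in the other 2 controls and in 4 of the 5 Tip60 cKO mice. The strongest peak had its summit at -1204 and -688 bp in control mice 1 and 5, and within 88 to 154 bp after the start in the other controls and at -64 to 171 bp in the Tip60 cKO mice, so different peaks are compared. The part of either in the higher score was not tested beyond the pileup ranking. Coverage of the window was lower in Tip60 cKO mice, at 42.5%, 15.7%, 21.8%, 6.22% and 27.1% against 15.8%, 10.8%, 9.42%, 11.4% and 8.6% (exact permutation p = 0.0952), a difference of -11.5 percentage points that was -6.51 without control mouse 1 and turned to 3.32 with equal numbers of peaks per library. The window is shared with the divergent transcript E230029C05Rik. The 250 bases before the RefSeq start of Eed (build GRCm38.p6, chr7:89980977-89981226, minus strand) are shown because this gene and Dot1l had the smallest p-values. They hold none of the 7 motifs searched (named with Dot1l, next):
Eed: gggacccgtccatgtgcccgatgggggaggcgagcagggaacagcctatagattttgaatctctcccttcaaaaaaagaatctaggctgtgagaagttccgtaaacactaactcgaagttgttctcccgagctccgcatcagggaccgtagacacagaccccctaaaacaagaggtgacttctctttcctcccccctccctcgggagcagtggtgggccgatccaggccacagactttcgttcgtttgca

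Dot1l, the sole H3K79 methyltransferase of mammals, was the 1 gene whose rank scores separated. It scored 94.7, 95.5, 96.6, 92.3 and 89.1 in the controls and 86.2, 84.3, 87.6, 88.7 and 84.8 in the Tip60 cKO mice. All 5 Tip60 cKO mice were below all controls, by -7.31 ± 1.97 (SE) on average. The exact permutation p was 0.00794 and the limma p 0.00472, which adjusted over all genes to 0.169. The strongest peak stood 7.55 ± 1.04 times over input in control and 5.30 ± 0.45 times in Tip60 cKO mice, or 1.41 ± 0.17 and 1.07 ± 0.08 times the library's median start peak. The summit lay 82 to 447 bp after the start, except in Tip60 cKO mouse 2, where it was at 1209 bp. The difference in score was -9.54 within lane 7 and -3.96 within lane 8. Taking the strongest peak at any annotated start of Dot1l, it was -2.90 (adjusted p = 0.695). Coverage of the Dot1l window hardly differed, at 18.9 ± 3.83% and 18.1 ± 6.85%, while the peak was lower. The 250 bases before its RefSeq start (GRCm38.p6, chr10:80754953-80755202, plus strand) were 78.4% G and C, with an observed over expected CpG ratio of 1.15. On both strands of such windows 7 motifs were searched, namely the E-box CACGTG, the cAMP response element TGACGTCA, the Nrf1 motif GCATGCGC, the E2F motif TTTNNCGC, the GC box GGGCGG, the CCAAT box and the Yy1 motif AAGATGG. Capitals mark the matches, here the GC box at 2 places on either strand:
Dot1l: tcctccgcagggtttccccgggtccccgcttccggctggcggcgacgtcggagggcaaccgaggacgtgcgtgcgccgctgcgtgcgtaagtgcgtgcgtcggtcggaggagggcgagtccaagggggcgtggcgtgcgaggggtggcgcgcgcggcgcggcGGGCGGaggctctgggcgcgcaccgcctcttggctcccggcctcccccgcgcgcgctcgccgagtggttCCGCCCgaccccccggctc

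The H3K36 methyltransferases Nsd1, Nsd2, Nsd3, Ash1l and Setd2 had a median control score of 95.4, and 4 of the 5 were lower in Tip60 cKO mice. Setd2, which places trimethylation behind elongating polymerase, scored 98.5, 98.3, 98.0, 99.4 and 96.1 in the controls and 98.0, 92.4, 94.8, 95.9 and 92.2 in the Tip60 cKO mice. The controls were higher on average with overlap (difference -3.39 ± 1.74 SE, exact permutation p = 0.0159, limma adjusted p = 0.503). Nsd1, the Sotos syndrome gene, scored 98.3 ± 2.36 in the controls and 99.9 ± 0.16 in Tip60 cKO mice. Coverage of Ash1l was 43%, 39.6%, 39.4%, 37.6% and 42.3% in the controls and 39.5%, 32.9%, 34%, 30.9% and 6.85% in the Tip60 cKO mice, with mouse 5 far below the rest. The difference of -11.6 percentage points was -6.09 without that mouse. Nsd3 had 39.7% to 46.4% in the controls and 19.8% to 41.9% in the Tip60 cKO mice.

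Arginine methyltransferases had lower start levels. Prmt1, the main asymmetric enzyme, scored 85.4 ± 5.42 in control and 82.2 ± 2.07 in Tip60 cKO mice. Its window coverage was 42.8%, 36.3%, 37.3%, 29.1% and 48.1% against 30.8%, 22.2%, 30.4%, 31.6% and 22.4% (difference -11.2 ± 4.21 percentage points, exact permutation p = 0.0317, adjusted p = 0.146). Prmt5, the main symmetric enzyme, scored 78.9, 73.8, 74.0, 70.2 and 80.8 in the controls and 77.2, 71.7 and 68.1 in Tip60 cKO mice 1, 2 and 3, and had no start peak in mice 4 and 5. Both mice without the peak were of lane 8. The difference was -3.24 within lane 7 and -75.5 within lane 8, and over all mice the exact permutation p was 0.0794.

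The LSD demethylases were both lower in rank score. Kdm1a (LSD1), which removes mono- and dimethylation of H3K4, scored 96.8 ± 1.84 in control and 92.8 ± 3.96 in Tip60 cKO mice (exact permutation p = 0.0794). Kdm1b (LSD2) scored 80.1, 85.1, 83.6, 84.0 and 82.1 in the controls and 76.3, 74.5, 73.6, 69.7 and 82.3 in the Tip60 cKO mice. Of these, 4 lay below all controls and mouse 5 lay among them (difference -7.69 ± 2.46 SE, exact permutation p = 0.0238, limma adjusted p = 0.287). The difference was -8.07 within lane 7 and -7.10 within lane 8. With peaks ranked by pileup it was -4.47 (limma adjusted p = 0.575), and with equal numbers of peaks per library -21.6 (limma adjusted p = 0.582). The strongest Kdm1b peak was 5.35 ± 0.35 times over input in control and 3.88 ± 0.44 times in Tip60 cKO mice. Its summit lay 145 to 282 bp after the start in the controls, but 1038 and 795 bp after it in Tip60 cKO mice 2 and 4, where another peak may be compared. The start window also holds the start of Tpmt. A peak overlapped the window around the RefSeq start of Kdm1b in 5 control lists and 1 Tip60 cKO list, a count that was not tested. The bases before its RefSeq start (GRCm38.p6, chr13:47043249-47043498, plus strand) hold 6 matches to GGGCGG or its complement, in capitals:
Kdm1b: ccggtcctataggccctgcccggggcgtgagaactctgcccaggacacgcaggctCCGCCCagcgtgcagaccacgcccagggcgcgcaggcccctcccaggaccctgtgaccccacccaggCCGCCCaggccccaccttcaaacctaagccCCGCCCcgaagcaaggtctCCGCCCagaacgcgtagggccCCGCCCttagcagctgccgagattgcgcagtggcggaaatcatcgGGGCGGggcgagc

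The JmjC demethylases were the largest class, with 12 genes. Of the 11 with a start peak, 9 scored lower in Tip60 cKO mice (55.6% of all genes did) and 2 higher, with medians of 95.3 in control and 90.9 in Tip60 cKO mice and 0 past the adjusted threshold. Kdm5b, which removes H3K4 trimethylation, scored 99.3, 98.7, 99.2, 95.1 and 93.8 in the controls and 96.8, 89.7, 90.9, 95.1 and 83.5 in the Tip60 cKO mice (difference -6.04 ± 2.75 SE, exact permutation p = 0.0397). Kdm7a, which acts on dimethylated H3K9 and H3K27, scored 92.8, 97.2, 94.9, 95.0 and 96.4 against 94.8, 90.6, 78.1, 85.7 and 93.1 (difference -6.81 ± 3.18 SE, exact permutation p = 0.0397). In both genes the ranges overlapped, and the limma adjusted p was 0.438 and 0.455. Without Tip60 cKO mouse 3 the Kdm7a difference was -4.22.

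The smallest p for coverage belonged to Kdm4b, a demethylase of H3K9 trimethylation. Its window was covered over 35.8%, 26.4%, 28.6%, 24.9% and 24.7% in the controls and 22.4%, 19.7%, 16.7%, 11.4% and 13.3% in the Tip60 cKO mice. All Tip60 cKO mice were below all controls (difference -11.4 ± 3.42 percentage points, exact permutation p = 0.00794, limma adjusted p = 0.0875). Kdm2b, which recruits the variant Polycomb complex PRC1 to CpG islands, had the widest window in the controls, 81.6%, 88.9%, 66.9%, 61.2% and 71.6%, against 74.1%, 45.7%, 58.0%, 43.3% and 16.1%. Mouse 5 was lowest and mouse 1 lay within the control range (difference -26.6 ± 9.07 percentage points, adjusted p = 0.12). Without Tip60 cKO mouse 1 the difference was -33.3 percentage points and the adjusted p 0.0388. Without mouse 5 they were -18.8 and 0.228, and relative to the library mean the adjusted p was 0.288. Jmjd1c was covered over 34% to 49.4% in the controls and 19.0% to 37.5% in the Tip60 cKO mice.

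**Figure D3:**
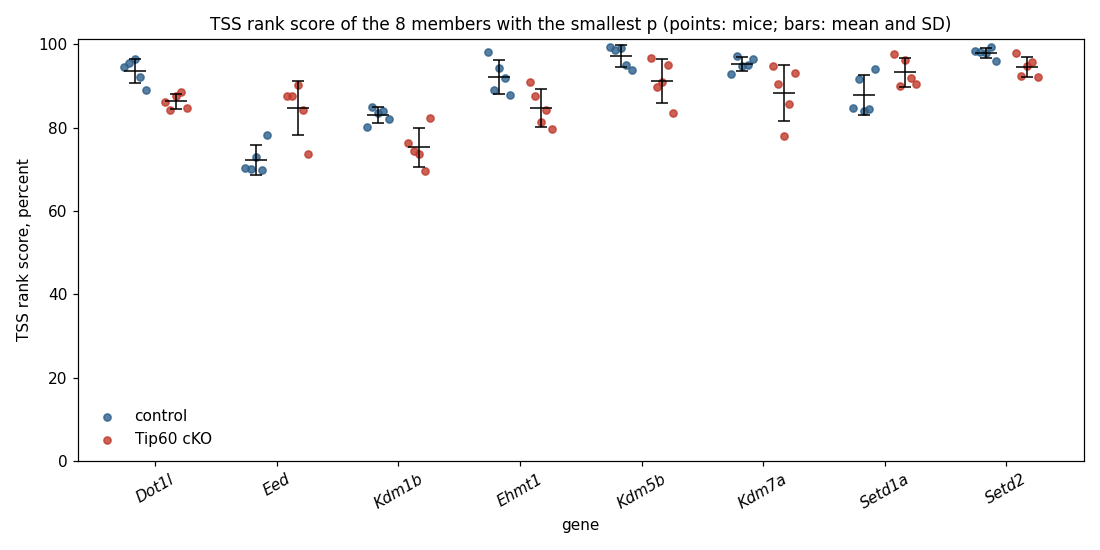
TSS rank score (percent) of the 8 genes with the smallest p in the rank score fit, by mouse (points) with mean and SD (bars), control in blue and Tip60 cKO in red. Only Dot1l separates the genotypes. Eed and Setd1a are higher on average in Tip60 cKO mice and the other genes are lower.

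Of the DNA methyltransferases, Dnmt3a had a strong start and Dnmt1 none at its annotated gene start. Dnmt3a, the de novo enzyme of neurons, scored 97.6 ± 2.31 in control and 98.1 ± 1.97 in Tip60 cKO mice, and its window was covered over 53.0 ± 4.17% and 51.9 ± 2.70%. Dnmt3b scored 86.6 ± 4.73 and 90.3 ± 4.23. Tet2 scored 93.7 ± 3.45 and 94.5 ± 0.53. Tet3 scored 91.9 to 97.2 in the controls and 87.6 to 96.8 in 4 Tip60 cKO mice, with no peak in mouse 5.

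The genes whose annotated start lacked a peak had one at a start further inside. Dnmt1, the maintenance enzyme, Kdm4c, another demethylase of H3K9 trimethylation, and Tet1, which oxidises 5-methylcytosine, were at 0 in all 10 lists by the start rule. The first annotated start of Dnmt1 (Dnmt1-202, chr9:20959888) had no peak within 500 bp, whereas the start of Dnmt1-203, 7.26 kb inside the gene, had one in all 10 lists. Its 1 kb surroundings were covered over 60%, 30.3%, 71.2%, 43.3% and 51.3% in the controls and 73.4%, 44.8%, 33.4%, 28.9% and 26.6% in the Tip60 cKO mice. The ranges overlapped (exact permutation p = 0.397). At Kdm4c the peaks stood at the start of Kdm4c-201, 9.44 kb inside, with 73.0 ± 1.96% covered in control and 63.0 ± 12.1% in Tip60 cKO mice (exact permutation p = 0.111). At Tet1 they stood at Tet1-202, 43.7 kb inside, a transcript annotated as processed without a reading frame. Coverage there was 78.0%, 64.0%, 73.4%, 63.3% and 62.8% in the controls and 71.9%, 20.1%, 64.6%, 26.4% and 47.3% in the Tip60 cKO mice, wider in the controls on average with overlap (exact permutation p = 0.0873).

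Tet3 was similar. Its outermost start (Tet3-204) had no peak within 500 bp, and the start of Tet3-203, 2.69 kb inside, had one in all 10 lists, covering 100% of the 1 kb in all controls and in 4 Tip60 cKO mice and 65.4% in mouse 5. Taking the strongest peak at any annotated start, Dnmt1 scored 79.1 ± 3.02 in control and 76.1 ± 3.62 in Tip60 cKO mice, Kdm4c 90.3 ± 4.74 and 90.2 ± 6.31, and Tet1 89.9 ± 5.37 and 83.8 ± 4.79. None of the 46 passed the adjusted threshold on that scale in limma (lowest adjusted p 0.172). Over all 46 genes, 374 distinct starts are annotated, of which 157 had a peak within 500 bp in all 10 lists and 122 in none. In 42 of the 46 genes at least 1 start had a peak in all 10.

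**Figure D4:**
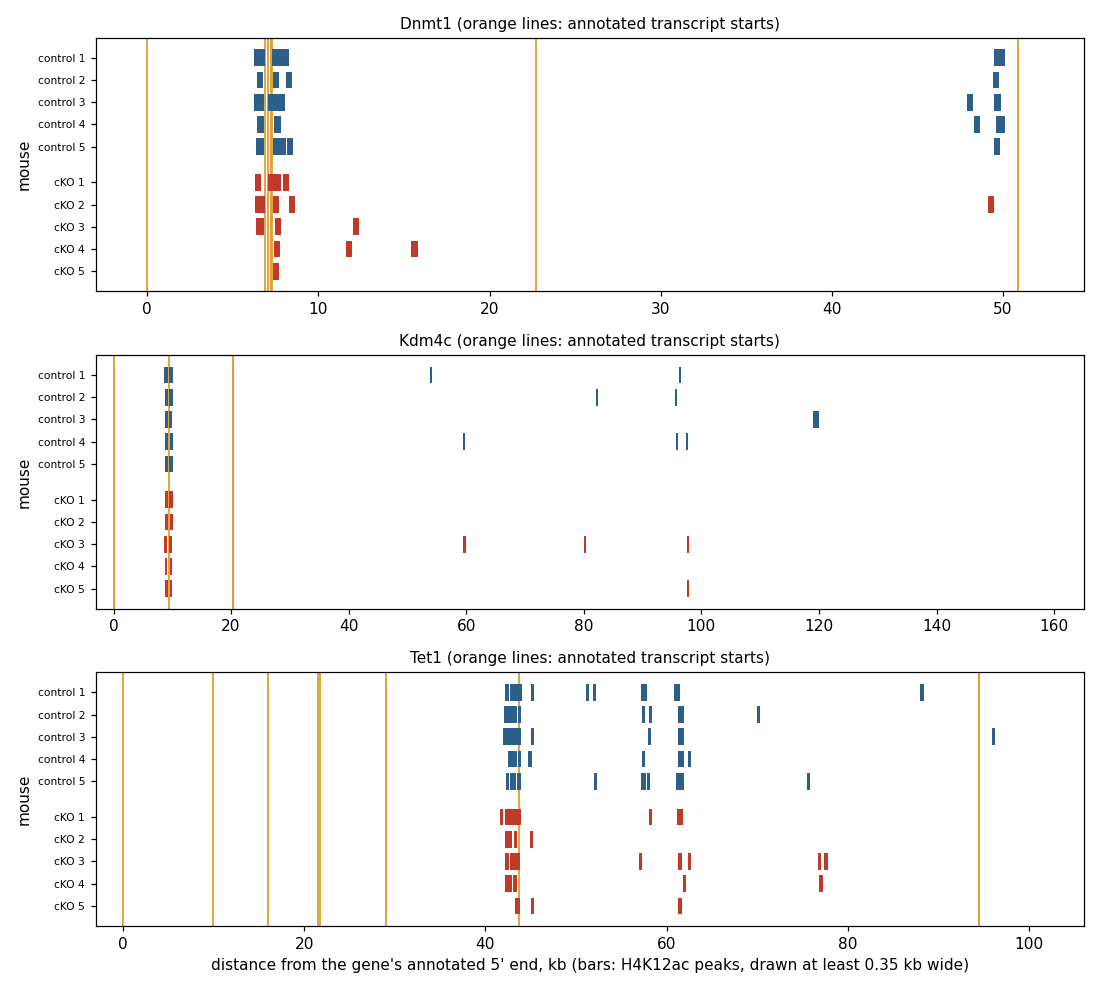
Peaks (bars) in each list along Dnmt1, Kdm4c and Tet1 by distance from the annotated 5′ end in kb, control in blue and Tip60 cKO in red, with annotated transcript starts as orange lines. Peaks of all 10 mice gather at an inner start, 7.26, 9.44 and 43.7 kb inside, and none lies at 0. The cluster of control bars near 50 kb in Dnmt1 is the region described with the gene bodies.

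At Kdm4c and Dnmt1 the sequence before the outer and the inner starts differed. RefSeq promoters (GRCm38.p6) were at hand for 34 of the 46 genes, 46 windows in all. Outer and inner windows of Kdm4c and Dnmt1 are shown because they hold the contrast between a start without and with a peak. The outer start of Kdm4c (chr4:74242247-74242496, plus strand) was 39.6% G and C with no CpG and no motif match, and had no peak. Its inner start (chr4:74251629-74251878, plus strand) was 60.4% G and C with 19 CpG, had a peak in 10 lists, and holds CACGTG, the E-box read the same on both strands, at 2 places in capitals:
Kdm4c, outer start: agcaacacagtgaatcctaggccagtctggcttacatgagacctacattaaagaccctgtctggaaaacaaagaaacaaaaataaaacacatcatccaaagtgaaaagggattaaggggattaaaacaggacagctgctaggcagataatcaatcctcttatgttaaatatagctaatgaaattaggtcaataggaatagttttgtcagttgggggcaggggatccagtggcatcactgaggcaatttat
Kdm4c, inner start: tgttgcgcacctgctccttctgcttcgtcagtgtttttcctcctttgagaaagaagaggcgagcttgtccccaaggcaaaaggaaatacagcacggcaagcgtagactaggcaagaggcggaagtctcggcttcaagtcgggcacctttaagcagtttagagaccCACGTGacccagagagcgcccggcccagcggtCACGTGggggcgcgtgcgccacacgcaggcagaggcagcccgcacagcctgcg

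The outer start of Dnmt1 (chr9:20959889-20960138, minus strand) was 50.4% G and C with 2 CpG and no peak, and holds CCAAT or its complement at 4 places. The window before the start of Dnmt1-201 (chr9:20952980-20953229, minus strand) was 54.8% G and C with 7 CpG, had a peak in 7 lists and holds none of the motifs. Before another RefSeq start of Dnmt1, at position 20952623, the window was 68.4% G and C with a CpG ratio of 0.89, and had a peak in only 3 lists. That window is not printed because it holds untranslated exon sequence:
Dnmt1, outer start: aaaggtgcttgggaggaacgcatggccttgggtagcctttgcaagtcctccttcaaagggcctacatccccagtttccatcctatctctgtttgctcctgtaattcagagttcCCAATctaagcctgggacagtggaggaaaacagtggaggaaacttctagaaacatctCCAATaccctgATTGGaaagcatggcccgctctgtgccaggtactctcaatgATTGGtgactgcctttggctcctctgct
Dnmt1, start of Dnmt1-201: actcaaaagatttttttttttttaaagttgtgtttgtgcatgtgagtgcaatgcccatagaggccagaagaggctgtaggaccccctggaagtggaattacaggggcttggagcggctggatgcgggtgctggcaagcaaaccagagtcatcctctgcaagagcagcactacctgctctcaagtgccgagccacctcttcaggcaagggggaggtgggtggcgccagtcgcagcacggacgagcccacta

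Over the 46 windows of the group, the median G and C content of the 250 upstream bases was 67.8% and the CpG ratio 0.82, beside 52.4% and 0.373 over all 32851 RefSeq promoters. A peak stood over 20 of the 46 in all 10 lists (43.5%, beside 17.2% of all promoters) and over 5 in no list. Windows without a peak were not all poor in G and C: that of Tet1, inside the gene, had 62.8% with a CpG ratio of 0.63 and GGGCGG, and that of Prmt5 had 58% with a ratio of 0.622. The promoters of the genome with a peak in all 10 lists had a median of 64.8% G and C and a ratio of 0.784, close to those of the group. GGGCGG was found in 63.0% of the group's windows, beside 32.7% of all promoters and 63.0% of all promoters with a peak in 10 lists. CACGTG stood in 10.9% beside 6.02% of all, CCAAT in 30.4% beside 33.8%, TTTNNCGC in 4.35% beside 4.28%, TGACGTCA in 2.17% beside 1.55%, and AAGATGG in 2.17% beside 4.49%. GCATGCGC was in none of the 46 windows and in 2.26% of all. A match describes letters only. The table has no entry for Ash1l, Kmt2b, Nsd2, Kdm3b, Nsd1, Kdm2a, Nsd3, Kdm5a, Kmt2e, Kdm6b, Kdm4b and Setd1b.

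Along the gene bodies, the group ranged from bodies widely under peaks to bodies without any. Gene body coverage was highest in Kdm4b, at 49.7%, 55.0%, 47.6%, 34.7% and 46% of its body in the controls and 50.8%, 41.9%, 47.8%, 30.6% and 22% in the Tip60 cKO mice. Kdm6b, a demethylase of H3K27 trimethylation, followed with 42.7%, 37.5%, 40.6%, 34.7% and 35.9% against 52.5%, 32.2%, 49.7%, 31.4% and 11.8%. In both genes the ranges overlapped. Dot1l was covered over 25.5 ± 7.14% and 20.6 ± 9.26%, Dnmt3a over 19.4 ± 4.22% and 17.6 ± 6.99%, and Kdm4a over 14.2 ± 2.07% and 8.78 ± 3.25%. The median of the 39 genes with a body peak in at least 2 lists was 2.54% in control and 2.03% in Tip60 cKO mice, close to the 2.81% and 2.08% of protein-coding genes. The other 7 had none or, for Dnmt3b, a body peak in 1 list only: Eed, Prmt5, Setdb2, Suz12, Suv39h2 and Kdm5a had no body peak in any list.

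No body coverage of the group passed the adjusted threshold, beside 9 of 12823 genes (0.0702%). It was lower in Tip60 cKO mice for 25 of the 39 and higher for 14, beside 74.2% lower over all genes, with a median of -0.257 beside -0.528 percentage points. At an unadjusted p below 0.05, 4 were lower (background 14.4%) and 1 was higher (background 1.27%), and none was lower without overlap (background 3.96%). Relative to the library mean, 17 of the 39 were lower. With equal numbers of peaks per library, 19 of 37 were lower and the median was -0.045 percentage points, beside 65.5% lower and -0.249 over all genes. Single libraries moved the median both ways. Without Tip60 cKO mouse 5, 19 of the 39 were lower and the median difference was 0.02 percentage points. It was -0.709 (32 lower) without Tip60 cKO mouse 1, -0.555 (30 lower) without Tip60 cKO mouse 3, -0.418 (31 lower) without control mouse 4 and -0.151 (25 lower) without control mouse 2. Kdm4a had the smallest p, at 16.8%, 14.2%, 14%, 11.1% and 15.1% in the controls and 8.98%, 7.70%, 14.1%, 7.82% and 5.33% in the Tip60 cKO mice. Of the latter, 4 lay below all controls and mouse 3 lay among them (exact permutation p = 0.0238, adjusted p = 0.243). The Kdm4a difference of -5.46 percentage points was -3.13 with equal numbers of peaks per library (limma adjusted p = 0.269).

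Kdm3a, a demethylase of H3K9 dimethylation, was covered over 2.16 ± 1.07% and 0.64 ± 0.58% (adjusted p = 0.245), Dnmt1 over 3.55 ± 0.84% and 1.87 ± 0.87% (adjusted p = 0.261), and Prmt1 over 5.77 ± 3.52% and 2.1 ± 1.94% (adjusted p = 0.317), where the difference of -3.67 percentage points was -2.44 without control mouse 1 and turned to 0.81 with equal numbers of peaks per library. Most Dnmt1 body peaks stood around its inner starts. In the controls others lay towards the far end of the gene, some of them in the called region described below. Of the genes with an unadjusted p below 0.05, Tet2 was the 1 with higher coverage in Tip60 cKO mice. It had a body peak in control mouse 1 only, covering 0.267%, and in all 5 Tip60 cKO mice, covering 0.861%, 0.252%, 1.85%, 0.459% and 0.54% (exact permutation p = 0.0159, adjusted p = 0.255). The difference of 0.74 percentage points was 0.475 without Tip60 cKO mouse 3 and 0.411 with equal numbers of peaks per library. It passed the filter of 2 lists mainly through the Tip60 cKO mice. These are a small share of a body of 81.5 kb.

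**Figure D5:**
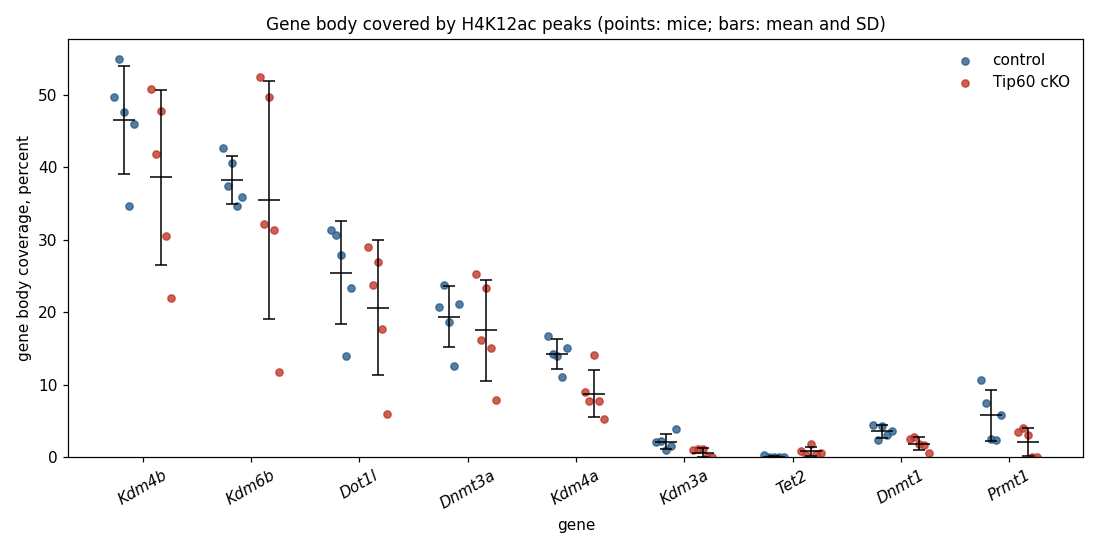
Percent of the gene body under peaks by mouse (points) with mean and SD (bars), control in blue and Tip60 cKO in red, for the 5 genes with the highest control coverage and the others among the 5 with the smallest p. Kdm4b and Kdm6b lie mostly between 30% and 55%, and Tip60 cKO mouse 5 is the lowest point of Kdm4b, Kdm6b, Dot1l, Dnmt3a and Kdm4a.

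Merged over the 10 lists and kept where at least 2 lists had a peak, 473 regions fell in the 46 genes. Of these, 73 lay in the start windows, 66 at inner starts and 334 elsewhere in the bodies. A peak in all 10 lists was found for 63.0% of the start regions, 31.8% of those at inner starts and 8.08% of the rest, beside 16.4% of all 144781 regions of the genome. The genome share was not split by place. Dnmt3a held the most, 52 regions, of which 10 were in all lists. It was followed by Tet3 with 37, Kdm4b with 28 (11 in all lists), Nsd3 with 26 and Kdm2b with 25, whereas Dnmt3b, Eed, Kdm5a and Prmt5 held 1 each. Per length, Kdm6b had 5.24 regions per 10 kb, Kmt2d 4.82, Prmt1 4.77 and Dnmt3a 4.71, against 0.121 in Kdm5a.

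Regions were lower in Tip60 cKO mice in 54 of the 73 start regions and in 159 of the 334 other body regions, beside 56.9% of all regions of the genome. That share is over regions of every place. No share for start regions of the genome was computed, so the start count has no like background. At an unadjusted p below 0.05, 28 of the 473 were lower (background 8.34%) and 33 were higher (background 3.68%). Away from any annotated start lay 27 of the 33 higher and 20 of the 28 lower regions, beside 334 of all 473, with higher regions in Dnmt3a, Setd1b, Kmt2a and Nsd3. Of the 33 higher regions, 23 had no peak in any control, and of the 28 lower regions 16 had none in any Tip60 cKO mouse, so these passed the filter of 2 lists through 1 genotype alone and had to differ. None of the higher regions passed the adjusted threshold.

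One region did, inside Dnmt1 (background 0.562% of all regions). It is 724 bp long, lies far inside the gene, 49.8 kb from its annotated 5′ end, and covers coding exon sequence and introns. Its rank score among all regions was 70.0, 40.3, 69.2, 66.4 and 76.3 in the controls and 0 in all 5 Tip60 cKO mice, which had no peak there. The region thus passed the filter of 2 lists through the controls alone, so that it had to be lower in Tip60 cKO mice, and its test is no independent support. The difference was -64.4 ± 7.35 (SE, limma adjusted p = 0.00184, exact permutation p = 0.00794). It was -59.8 within lane 7 and -71.3 within lane 8. The 5 peaks were weak, at 0.464 to 0.762 times the median start peak of their library, and Tip60 cKO mouse 2 had a peak just beside the region, from 49.1 to 49.4 kb. Presence in all controls and no Tip60 cKO mouse was shared by 540 regions of the genome, and the reverse by 56. The call was lost with the replicate block (adjusted p = 0.063), with a mean-dependent robust variance (0.211) and with peaks at q below 0.01 only (0.14).

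The other genes of these pathways, 76 further methyltransferases, demethylases, partner subunits and readers, came from a second list. A start peak in at least 2 lists was present for 63 of them. Their rank score was lower in Tip60 cKO mice for 34 and higher for 29, and 7 were lower (background 6.68%) and 1 higher (background 5.1%) at an unadjusted p below 0.05. Start coverage was lower for 57 of 63, beside 81.1% of all genes, with 20 lower at an unadjusted p below 0.05 (background 21.2%). Gene body coverage was lower for 44 of 52, beside 74.2% of all genes, with 8 lower at that p (background 14.4%). None passed the adjusted threshold for rank score, start coverage or gene body coverage. Prdm8, a neuronal PRDM protein, had the smallest p (84.9 ± 3.94 in control and 76.8 ± 2.60 in Tip60 cKO mice, adjusted p = 0.217). Men1 (menin), a subunit of MLL complexes, scored 95.8 ± 2.07 and 89.3 ± 3.10, and Wdr5, a core subunit of the same complexes, went the other way with 86.3 ± 2.98 and 91.6 ± 2.44.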

How the data were processed

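H4K12ac ChIP-Seq was measured in sorted hippocampal neuronal nuclei of 5 Tip60 cKO and 5 control mice. The authors aligned reads to mm10 (GRCm38), removed duplicates with SAMtools, and ran MACS (2.1.0.20140616) on each library against 1 pooled input per genotype, keeping peaks with q below 0.1. Each deposited list gives, per peak, the pileup (a signal height), the −log10 of the p-value and q-value, and the fold enrichment, a ratio to local background. No count table was used. From these the rank scores and coverages were computed, with a 2 kb window on either side of the start of each GENCODE M21 gene, gene bodies from 2 kb after the start in genes of over 4 kb, and only genes or regions that at least 2 lists marked. Local background was derived from the deposited pileup and fold enrichment.

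Genotypes were compared with limma 3.58.1 in R 4.3.3, as moderated statistics with Benjamini-Hochberg adjustment over all genes or regions tested, with a variance trend and robust fitting for coverage, and a threshold of 0.05. Differences are Tip60 cKO minus control. Single genes were also tested with two-sided exact permutation of the 10 mice, which cannot go below 0.00794. The fits were also run on simulated data, and the outcome is not reported here. Depth limits which weak peaks are called, and peak lists allow no counting interval. Sequences are from RefSeq (GRCm38.p6). The sequence of the Dnmt1 region is not reported here.

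Genes described in full were chosen by rule: those called in any fit, the 8 smallest p for rank score, those lacking a start peak in a list, the 3 highest and 3 lowest control scores, and the 5 highest and the 5 smallest p for gene body coverage. Genes named for start coverage were chosen after their values were seen. The members and lists were chosen with earlier results of these data known. Sequencing lane was read from the file names: mice 1 to 3 of each genotype in lane 7 and mice 4 and 5 in lane 8. The labels name separate samples, and the p-values measure the spread between these 10 libraries. Alternatives were a stricter q, equal numbers of peaks, other windows, rankings, scalings and variance models, lane or replicate number in the model, and leaving out each library.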

Additional observations from a re-analysis of the deposited data

Results flagged for a closer look

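Among 70 groups of 5 mice whose values are given for a described gene, 7 held a mouse far from the other 4 (Dixon's gap rule at its 95% limit, which chance passes in about 1 of 20 groups). In 3 of them the outlying value was a missing start peak. Setdb2 was at 0 in control mouse 1 against 68.3 to 81.7 in the other controls, Suv39h2 at 0 in control mouse 4 against 72.3 to 79.5, and Tet3 at 0 in Tip60 cKO mouse 5 against 87.6 to 96.8. The Tet3 score of control mouse 2 was 97.2, above 91.9 to 93.1 in the others. Start coverage of Ash1l was 6.85% in Tip60 cKO mouse 5 against 30.9% to 39.5%, and that of Suz12 was 9.50% in Tip60 cKO mouse 3 against 20.7% to 23.3%. Gene body coverage of Tet2 was 0.267% in control mouse 1, where the other controls were at 0. Tip60 cKO mouse 5, the library with the fewest peaks, accounted for 2 of the 7.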

How the results depend on the processing

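Of the values recomputed, 248 kept their direction and call when a library was left out, and 2 gained a call. Under the other settings 176 kept both, 3 were reversed, 1 gained a call and 3 lost it. The size of a difference was not part of this count. All these values except that of the Dnmt1 region were uncalled in the main fits. Eed reached an adjusted p of 0.036 on the log2 fold enrichment scale (difference 0.55, 1 of the genes called) and 0.05 without Tip60 cKO mouse 5 (difference 15.1, 1 called), and was reversed when peaks were ranked by pileup (-4.21). Its start coverage was reversed with equal numbers of peaks (3.32 percentage points), as was the body coverage of Prmt1 (0.81). With equal numbers of peaks the rank differences of Eed and Kdm1b grew to 54.4 and -21.6 without a call. Over all genes, rank score calls were 86 with trend and robust variance and 374 on the log2 scale, and 56 to 97 when each library was left out (0 to 1 of the genes described here, past 1.5 times the 51 calls without Tip60 cKO mouse 1, 2, 4 or 5). Start coverage calls over all genes were 27 with the replicate block, 568 with lane in the model, 661 with equal numbers of peaks and 105 relative to the library mean. Each library left out moved them by over 1.5 times, from 23 without control mouse 5 to 1025 without Tip60 cKO mouse 1, where 1 of the genes described here (Kdm2b) was called and otherwise 0. Gene body calls over all genes were 0 with the replicate block, 19 at q below 0.01, 49 with equal numbers of peaks, 45 with plain variance and 35 relative to the library mean, and 0 to 79 when each library was left out, moved by over 1.5 times for 9 of the 10 libraries (all but control mouse 2, 6 calls).

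Region calls over the genome were 254 with the replicate block and 318 with trend and robust variance, 0 within the 46 genes in both. Leaving out each library gave 918 to 1407 over the genome (1407 without control mouse 4) and 1 to 4 within the 46 genes, with 4 without Tip60 cKO mouse 5, control mouse 3 or control mouse 4, 3 without Tip60 cKO mouse 2, and 2 without Tip60 cKO mouse 1 or control mouse 2. At q below 0.01 the call within the 46 genes was another region, in Kdm4a. The replicate numbers name different mice. Deviations of same-numbered mice correlated at -0.0143 to 0.0567 over starts with a peak in all lists. For replicates 1 and 4 the same-numbered control was the closest match. The mice were not treated as pairs in the main fits. These correlations cannot exclude shared litters or shared processing, which the labels do not give. The cause of the changes between settings was not tested.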
